A study of Mus musculus with 6 samples.

Results

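The folate, serine and methionine cycle genes described here are 10 genes of one-carbon metabolism, Mthfd1, Mthfd2, Shmt1, Shmt2, Phgdh, Psat1, Bhmt, Bhmt2, Mat2a and Ahcy. They were chosen by name from the 47643 genes of the count table, and all 10 were found by symbol. Messenger RNA was sequenced from the intestine of male C57BL/6 mice, 7 to 8 weeks old, injected with tamoxifen and kept for 2 weeks on a diet with 60% fat. The 3 control libraries came from mice with a floxed Myc gene (Mycfl/fl), and the 3 Myc-deleted libraries from mice labelled MycΔIE, ERT2, read here as a deletion of Myc that tamoxifen induces. All 6 libraries share the strain, the tamoxifen and the diet. The labels name neither the promoter of the recombinase nor whether the controls carry one, so a lack of Myc and the recombinase itself cannot be told apart. They also do not say that the libraries of a group come from separate mice, so the p-values measure the spread between these libraries.

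One-carbon metabolism moves single carbon units, carried on folate or as the methyl group of methionine, into nucleotides, amino acids and methylation reactions. Serine, made from a glycolytic intermediate by Phgdh and Psat1, donates its side-chain carbon to folate through the serine hydroxymethyltransferases Shmt1 (cytosol) and Shmt2 (mitochondria). Mthfd1 (cytosol) and Mthfd2 (mitochondria) interconvert the folate forms that carry it. In the methionine cycle Mat2a makes the methyl donor S-adenosylmethionine, Ahcy breaks down the product left after methyl transfer to homocysteine, and Bhmt and Bhmt2 turn homocysteine back into methionine. Myc, a transcription factor of growing cells, is known to drive many genes of serine and folate metabolism in proliferating cells.

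In the Myc-deleted libraries, 3 of the 10 genes fell, namely Bhmt (9.88-fold lower), Mthfd1 (2.42-fold lower) and Shmt1 (1.61-fold lower). Bhmt had only 5 to 10 counts per Myc-deleted library. Shmt1 was close to the threshold, and not past it with DESeq2 or limma voom. No gene rose, 6 did not pass the test, and Bhmt2 had too few counts to be tested. A gene counted as called at an adjusted p under 0.05 in edgeR (quasi-likelihood F-test), where p-values were adjusted by Benjamini-Hochberg across the 12720 genes that passed the filter. Of all tested genes 3.73% were called lower and 4.22% higher. At an unadjusted p under 0.05, 5 members were lower. In 4 members each Myc-deleted library was below each control and in 0 above, while the groups were fully separate for 27.8% of the genes tested (13.7% lower, 14.1% higher). Fewer cells that express a gene and less RNA per cell cannot be told apart in these bulk samples. None of the members was higher at an unadjusted p under 0.05 in edgeR (0 genes), and DESeq2 and limma voom also called 0 higher. The median log2 fold change (Myc-deleted over control) of the 9 tested members was -0.34, beside -0.0021 for all tested genes.

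Sequences ahead of the start of the 3 genes that fell are shown because these genes moved in the same direction and Myc binds DNA at promoters. They are from RefSeq (GRCm38.p6), run 5′ to 3′ on the strand of the gene, and carry CG dinucleotides in capitals.
Mthfd1: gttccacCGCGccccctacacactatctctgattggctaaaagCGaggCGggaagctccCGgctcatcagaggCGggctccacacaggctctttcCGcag
Shmt1: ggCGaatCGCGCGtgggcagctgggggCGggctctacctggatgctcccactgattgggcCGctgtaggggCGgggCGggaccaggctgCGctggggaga
Bhmt: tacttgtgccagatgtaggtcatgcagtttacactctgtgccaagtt
The Mthfd1 stretch is chr12:76255132-76255231 (plus strand) and the Shmt1 stretch chr11:60811266-60811365 (minus strand), each 100 bases long and directly before the RefSeq start; the Shmt1 stretch lies within the longer GENCODE gene model, outside its exons. The Bhmt stretch is chr13:93637962-93638008 (minus strand), 47 bases that lie before the first exon of the GENCODE model. The shown stretches held 7 CG dinucleotides for Mthfd1, 9 for Shmt1 and 0 for the shorter Bhmt stretch. These regions are unlike, since the Bhmt stretch is the far end of the 250 bases before its RefSeq start. From 250 bases before to 50 bases after the start, Mthfd1 had 16 CG dinucleotides, Shmt1 17 and Bhmt 8. The median of all promoters was 7. The letters CACGTG, the E-box bound by Myc with its partner Max, were searched on both strands from 250 bases before to 50 bases after each start. They occurred in 0 of the 11 promoters of the 10 genes, and in 7.15% of all 32851 promoters of the table. The letters TGATGNAA, the core of an element bound by the stress factor Atf4, occurred in 0 of the 11 and in 3.97% of all promoters. This says only that these letters are not in these windows.

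Total expected counts ranged from 9956938 to 11328693 per library, so that 3 counts correspond to 0.259 to 0.306 CPM (counts per 1000000 counts of a library after TMM scaling, the unit of the levels given here). Such a limit covers counting error only. The labelled tissue was checked against its markers. All 12 enterocyte markers were tested and 1 of them, Fabp2, rose. Their summed level was 35427 to 40583 CPM in the controls, against 40153 to 46834 CPM with Myc deleted. The extraction protocol names liver, while the other labels name the intestine. Myc had 59, 70 and 59 counts in controls 1 to 3, against 36, 47 and 63 with Myc deleted, in the order of libraries 1 to 3 (log2 fold change -0.41 ± 0.22 SE, edgeR adjusted p = 0.318). Library 3 labelled Myc-deleted, with 5.81 CPM of Myc, lay just under the controls (5.86 to 6.05 CPM). The Myc level therefore does not check the labels, and Myc-deleted is used here as the label of a library. Values without library 3 are given with the members that fell.

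**Figure D1:**
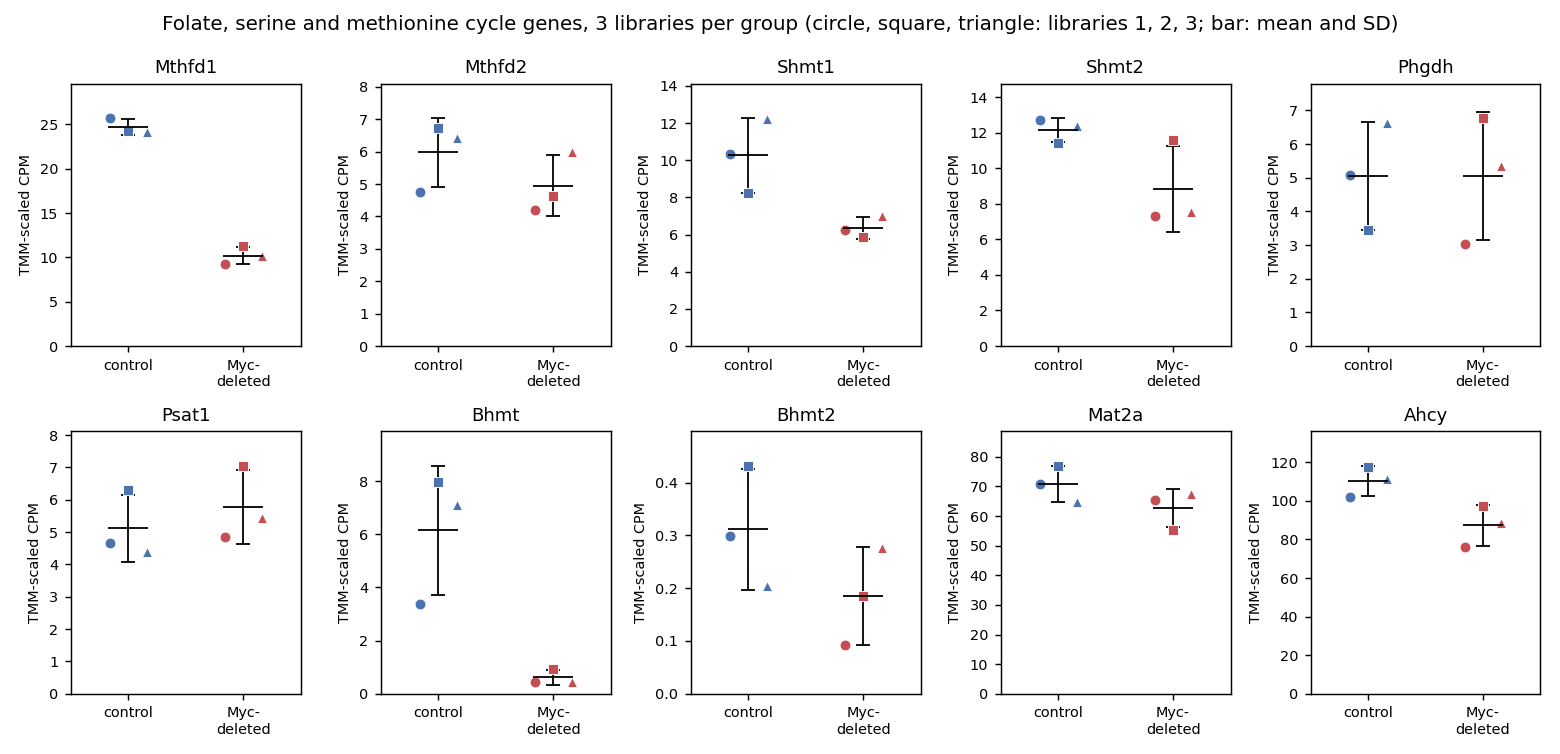
Levels of the 10 genes in TMM-scaled CPM (vertical axes, each starting at 0) in control (blue) and Myc-deleted (red) libraries, with symbols for libraries 1 to 3 and bars for the mean and SD. Mthfd1, Shmt1, Bhmt and Ahcy are lower in each Myc-deleted library than in any control, and the other 6 genes overlap between groups.

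Mthfd1 (ENSMUSG00000021048.6, GRCm38 chromosome 12, 76255298 to 76319803, plus strand) encodes the cytosolic enzyme with 3 folate-converting activities in one protein. Its level was 25.7, 24.2 and 24.1 CPM in controls 1 to 3, against 9.24, 11.2 and 10.1 CPM with Myc deleted, in the order of libraries 1 to 3. The groups lay far apart, with little spread within either. The means were 24.7 ± 0.915 and 10.2 ± 0.999 CPM (SD, n = 3 each). The log2 fold change was -1.27 ± 0.11 SE (edgeR adjusted p = 0.000440), and Mthfd1 ranked 15 of 12720 genes by p. Leaving out any 1 library gave -1.35 to -1.21, with an adjusted p of 0.000992 to 0.00312. Without Myc-deleted library 3 the log2 fold change of Mthfd1 was -1.27 (edgeR adjusted p = 0.00165).

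Mthfd2 (ENSMUSG00000005667.8, chromosome 6, 83305691 to 83325908, minus strand) encodes the mitochondrial dehydrogenase and cyclohydrolase, which is abundant in embryonic and tumour cells. It stood at 4.77, 6.74 and 6.44 CPM in the controls, against 4.21, 4.64 and 6.00 CPM with Myc deleted. The groups overlapped, and the difference did not pass (log2 fold change -0.28 ± 0.21 SE, 95% interval -0.76 to 0.20, edgeR adjusted p = 0.504). The ratio of Mthfd1 to Mthfd2 within a library is free of scaling between libraries. Its log2 value was 2.39, 1.82 and 1.88 in the controls, against 1.10, 1.24 and 0.74 with Myc deleted. The mean difference was -0.998, and each Myc-deleted library lay below each control. A two-sided exact permutation test gave p = 0.1, the smallest that 3 against 3 libraries allow (adjusted p = 0.2 over 4 gene pairs).

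Shmt1 (ENSMUSG00000020534.14, chromosome 11, 60788104 to 60811718, minus strand) had 10.3, 8.21 and 12.2 CPM in the controls, against 6.22, 5.85 and 7.01 CPM with Myc deleted. The lowest control lay above the highest Myc-deleted library. The fall was -0.68 ± 0.18 on the log2 scale (SE), with an edgeR adjusted p of 0.0475, close to the threshold. Shmt1 did not pass with DESeq2 (adjusted p = 0.0676) or limma voom (0.0637). With control library 1 or 3 left out, the edgeR adjusted p was 0.116 and 0.145. Without Myc-deleted library 1, 2 or 3 it was 0.10, 0.139 and 0.0670. Shmt1 passed without control library 2 (0.0364), with a log2 fold change of -0.84. Exons of Smcr8, on the opposite strand, cover 4.74% of the exon bases of Shmt1. Smcr8 had 276, 335 and 331 counts in the controls, against 432, 348 and 402 with Myc deleted, and its difference did not pass (edgeR adjusted p = 0.179). The kit marks strand, and the strand setting of the counting is not given in the sources used here.

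Shmt2 (ENSMUSG00000025403.4, chromosome 10, 127517123 to 127522444, minus strand), the mitochondrial counterpart, had 12.7, 11.4 and 12.4 CPM in the controls. In Myc-deleted libraries 1 to 3 it stood at 7.32, 11.6 and 7.57 CPM. Myc-deleted libraries 1 and 3 were below all controls, and library 2 was among them. The difference did not pass (-0.46 ± 0.18 SE, 95% interval -0.87 to -0.05, edgeR adjusted p = 0.172). Without Myc-deleted library 2 the log2 fold change was -0.71 and passed (edgeR adjusted p = 0.0315). The log2 ratio of Shmt1 to Shmt2 was -0.26 ± 0.229 in the controls, against -0.43 ± 0.465 with Myc deleted (SD, n = 3). The ratio differed by -0.18, within its spread (exact permutation p = 0.7, adjusted p = 0.8). For this pair the changes of the 2 compartments did not differ beyond that spread. With 3 against 3 libraries the exact permutation test cannot give a p under 0.1, so it could not detect a difference at 0.05.

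Phgdh (ENSMUSG00000053398.11, chromosome 3, 98313170 to 98339990, minus strand), the first enzyme of serine synthesis, had 5.07, 3.45 and 6.64 CPM in the controls, against 3.02, 6.78 and 5.35 CPM with Myc deleted. Psat1 (ENSMUSG00000024640.9, chromosome 19, 15904678 to 15947337, minus strand), which catalyses the next step, had 4.67, 6.31 and 4.39 CPM in the controls, against 4.85, 7.06 and 5.44 CPM with Myc deleted. Both genes overlapped between the groups, Psat1 only in part, with 2 controls below each Myc-deleted library. The log2 fold change of Phgdh was 0.01 ± 0.32 SE (95% interval -0.71 to 0.72, edgeR adjusted p = 0.991), with a sign that turned in 7 of 15 alternatives. That of Psat1 was 0.17 ± 0.22 SE (95% interval -0.33 to 0.66, edgeR adjusted p = 0.715). With 33 to 76 counts per library, the intervals allow changes in either direction. The log2 ratio of Phgdh to Psat1 differed by -0.20 between the groups (exact permutation p = 0.8, adjusted p = 0.8). Its spread in the controls was 0.719 (SD, n = 3). Psph, the last enzyme of serine synthesis, had 4.44 ± 0.585 CPM in the controls, against 6.11 ± 0.837 CPM with Myc deleted (0.46 ± 0.19 SE, edgeR adjusted p = 0.200).

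**Figure D2:**
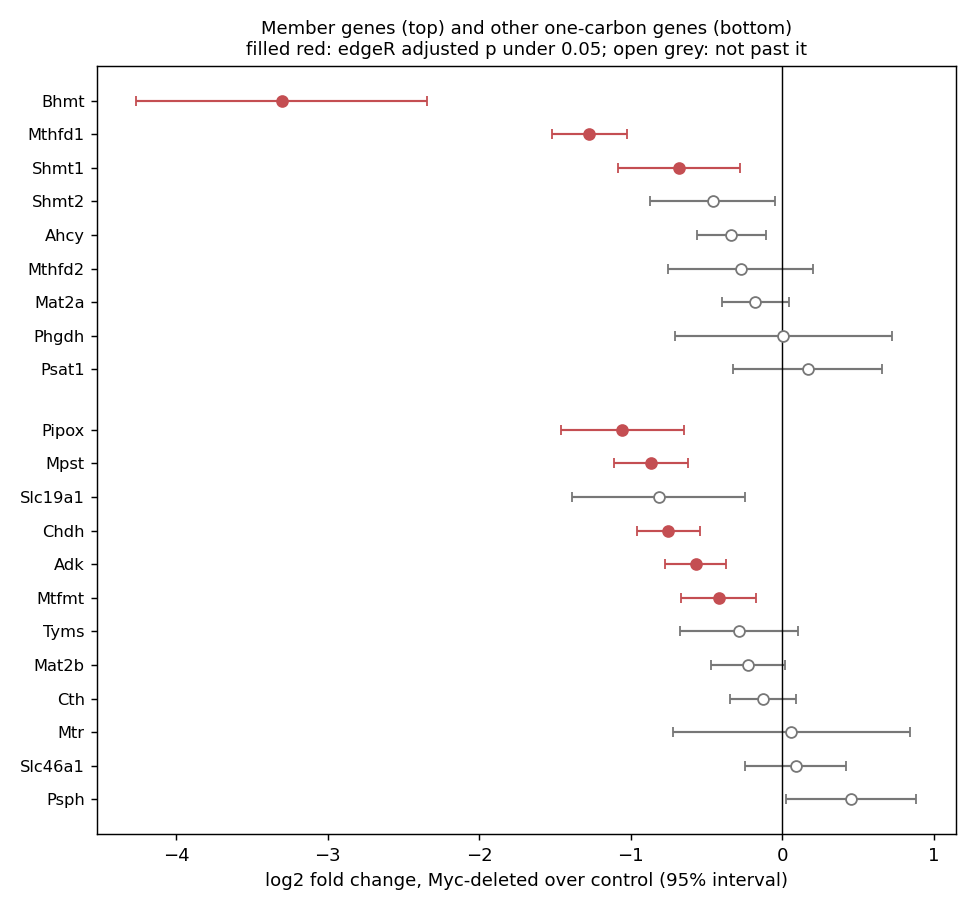
Log2 fold change of Myc-deleted over control (horizontal axis) with its 95% interval for the 9 tested members (top) and 12 other one-carbon genes (bottom). Genes past an edgeR adjusted p of 0.05 are in filled red. The 12 are a selection from 66 tested, all 5 that were called and others from those fixed by name. Bhmt lies farthest from 0 at -3.30, and among the members the intervals of Mthfd2, Phgdh, Psat1 and Mat2a span 0.

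Bhmt (ENSMUSG00000074768.5, chromosome 13, 93616675 to 93637961, minus strand) encodes betaine-homocysteine methyltransferase, which is best known from liver and kidney. It had 34, 92.0 and 69.7 expected counts in controls 1 to 3, against 5, 10 and 5 with Myc deleted, in the order of libraries 1 to 3. These correspond to 3.38, 7.95 and 7.12 CPM and to 0.457, 0.929 and 0.461 CPM. The controls differed among themselves, yet the lowest of them was above every Myc-deleted library. Bhmt went from 6.15 ± 2.44 to 0.616 ± 0.271 CPM (SD, n = 3 each). The log2 fold change was -3.30 ± 0.43 SE (95% interval -4.26 to -2.35, edgeR adjusted p = 0.00199). It passed in all 6 leave-one-out fits, with -3.72 to -3.08 and an adjusted p of 0.00143 to 0.0127. Without Myc-deleted library 3 the value for Bhmt was -3.14 (edgeR adjusted p = 0.00781). Bhmt passed the filter on low counts through the controls, since its counts in the Myc-deleted libraries were at or under the minimum of 10.

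Reads of Bhmt can be shared with near-identical copies. Gm5096 matches 1869 bases of the Bhmt transcript at 99.4% identity and had 0, 6.98 and 4.33 counts in the controls and 0 in each Myc-deleted library. Bhmt-ps1 (98.9% identity over 1224 bases) was at 0 throughout. With the counts of both copies added to Bhmt, the log2 fold change was -3.38 (edgeR adjusted p = 0.00208).

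Since Bhmt is abundant in hepatocytes and the extraction protocol names liver, hepatocyte markers are given beside it. Of 18 markers 17 were found in the table and 7 passed the filter. Serpina1b, with 460 to 836 counts per library, made up most of the sum. The summed level was 99.5 to 112 CPM in the controls, against 88.1 to 96.1 CPM with Myc deleted. Alb, the serum albumin gene, had 19, 37 and 27 counts in the controls, against 10, 1 and 8 with Myc deleted, and it fell (-2.15 ± 0.52 SE, edgeR adjusted p = 0.0326). Like Bhmt, Alb passed the filter on low counts through the controls, with Myc-deleted counts at or under the minimum of 10. Tat, tyrosine aminotransferase, also fell (-1.46 ± 0.34 SE, edgeR adjusted p = 0.0276). Its level went from 32.2 ± 8.22 to 11.7 ± 6.00 CPM (SD, n = 3 each), a larger drop than that of the mean summed level. Of the 7 tested markers 4 had a negative and 3 a positive log2 fold change, and the other 5 did not pass. The positive ones were Ttr (0.30), Serpina1b (0.30, from 58.0 ± 13.0 to 71.5 ± 7.06 CPM) and Apoh (0.25). The 10 markers that were not tested did not all move alike. Fga, a fibrinogen gene, had 2, 3 and 3 counts in the controls and 0 in each Myc-deleted library. The fibrinogen gene Fgb had 1, 4 and 3 counts against 0, 0 and 1, and Fgg 0, 2 and 0 against 1, 0 and 1. Serpina1a had 4.05, 5.74 and 3.93 expected counts in the controls, against 8.04, 2.49 and 10.2 with Myc deleted. Mat1a, the liver form of methionine adenosyltransferase, had at most 1 count in any library. Bhmt had more counts than Alb in each control library, and fewer in Myc-deleted libraries 1 and 3. The part of these markers in the fall of Bhmt was not tested. Smooth muscle markers stood apart in a control library, with a highest sum of 96.4 CPM among the controls and 16.4 to 21.3 CPM in the Myc-deleted libraries. The log2 fold change of Bhmt without that library (control 2), where Bhmt was also highest, was -3.08 (edgeR adjusted p = 0.0127).

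Bhmt2 (ENSMUSG00000042118.7, chromosome 13, 93655720 to 93674302, minus strand), which uses S-methylmethionine as methyl donor, lies 17.8 kb from Bhmt. It had 3, 5 and 2 counts in the controls, against 1, 2 and 3 with Myc deleted, 10 against 6 in all. A change in Bhmt2 was not detectable at this depth. The log2 ratio of Bhmt to Bhmt2 was 2.88, 3.72 and 4.23 in the controls, against 1.21, 1.58 and 0.48 with Myc deleted. The groups did not overlap (mean difference -2.52, exact permutation p = 0.1, adjusted p = 0.2), and the few counts of Bhmt2 make the ratio imprecise. Dmgdh, the mitochondrial enzyme that oxidises the dimethylglycine left by Bhmt, starts 130 bases from Bhmt2 on the opposite strand. It had 3, 4 and 2 counts in the controls, against 1, 0 and 1 with Myc deleted.

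**Figure D3:**
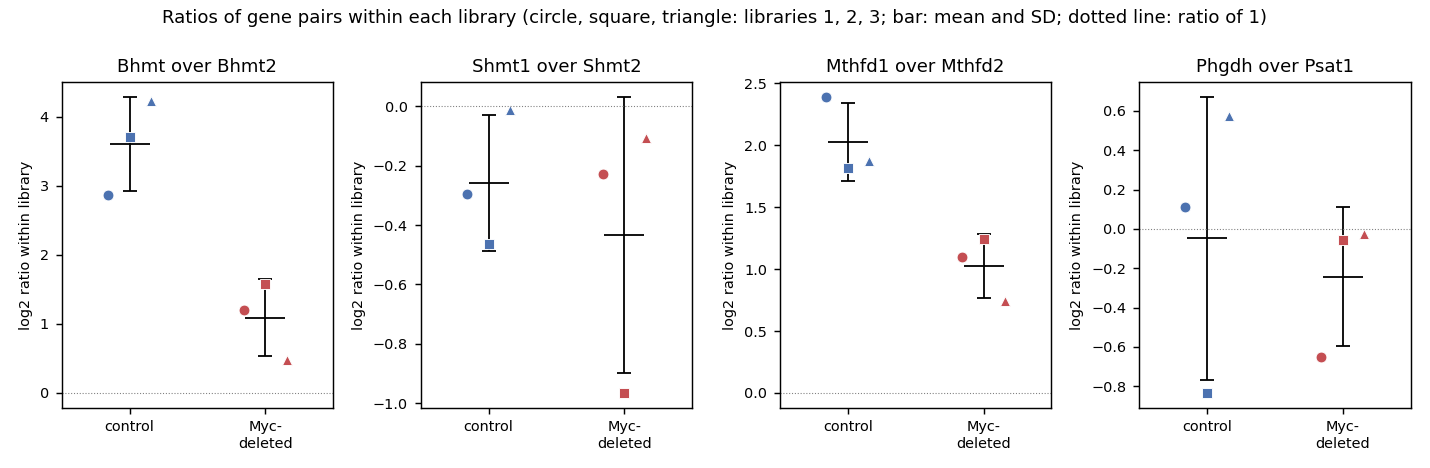
Log2 ratios of 4 gene pairs within each library (vertical axes) in control (blue) and Myc-deleted (red) libraries, with bars for the mean and SD and a dotted line at a ratio of 1. The ratios of Bhmt to Bhmt2 and of Mthfd1 to Mthfd2 are lower in each Myc-deleted library than in any control, by 2.52 and 0.998 on average, while the other 2 overlap.

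Mat2a (ENSMUSG00000053907.10, chromosome 6, 72432799 to 72439558, minus strand) stood at 71.0, 77.0 and 64.7 CPM in the controls, against 65.3, 55.4 and 67.3 CPM with Myc deleted. The groups overlapped, and the difference did not pass (-0.18 ± 0.10 SE, 95% interval -0.40 to 0.04, edgeR adjusted p = 0.337). Mat2b, which encodes its regulatory partner, did not pass either (-0.23 ± 0.11 SE, edgeR adjusted p = 0.262). An opposite-strand gene, Particl, shares 11.3% of the exon bases of Mat2a and had 18.9 to 27.6 counts per library.

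Ahcy (ENSMUSG00000027597.15, chromosome 2, 155059310 to 155074497, minus strand) had 102, 118 and 111 CPM in the controls, against 76.1, 97.6 and 88.4 CPM with Myc deleted. Each Myc-deleted library was below each control, as was the case for 4 of the 9 tested members and for 13.7% of all tested genes. The difference in Ahcy did not pass (-0.34 ± 0.10 SE, 95% interval -0.56 to -0.11, edgeR adjusted p = 0.0769). It passed without a filter on low counts (edgeR adjusted p = 0.0470). The expressed copy Gm4737 is 99.7% identical to the Ahcy transcript over 2086 bases and had 15.3 to 46.2 counts per library, against 832 to 1362 for Ahcy.

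Levels of different genes were compared per kilobase of exon. Ahcy was highest in the controls, with 39.4 ± 2.82 CPM per kb (SD, n = 3), followed by Mat2a with 15.8 ± 1.37 and Mthfd1 with 5.56 ± 0.206 CPM per kb. Shmt2 came next with 3.91 ± 0.218 CPM per kb. Then came Shmt1 (2.64 ± 0.519), Phgdh (2.03 ± 0.642), Mthfd2 (1.72 ± 0.304), Psat1 (1.2 ± 0.244) and Bhmt (1.07 ± 0.423 CPM per kb). From Shmt1 to Bhmt the values of each gene overlapped with those of the next in this order, while Shmt1 lay above Mthfd2 in all controls. Bhmt2 was lowest with 0.126 ± 0.0464 CPM per kb. In the Myc-deleted libraries Mthfd1 (2.30 ± 0.225 CPM per kb) stood below Shmt2 (2.84 ± 0.775) in each library, where it had been above it in each control. On this measure Bhmt, at 0.107 ± 0.0471 CPM per kb, was then within the spread of Bhmt2 (0.0749 ± 0.0376). The union of Bhmt exons has 5758 bases, against 2490 bases for its longest protein-coding transcript. The level of Bhmt per kilobase, its place in this order and its nearness to Bhmt2 therefore depend on the length used.

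Of 81 other genes of folate, serine, choline and methionine metabolism, 66 were tested, 5 fell and none rose. The 5 that fell are 7.58% of the 66, where 3.73% of all tested genes were called lower. The count of 0 risers in edgeR stood beside 7 genes higher at an unadjusted p under 0.05. DESeq2 called 1 higher and limma voom 0. The median log2 fold change of the 66 was -0.08.

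**Figure D4:**
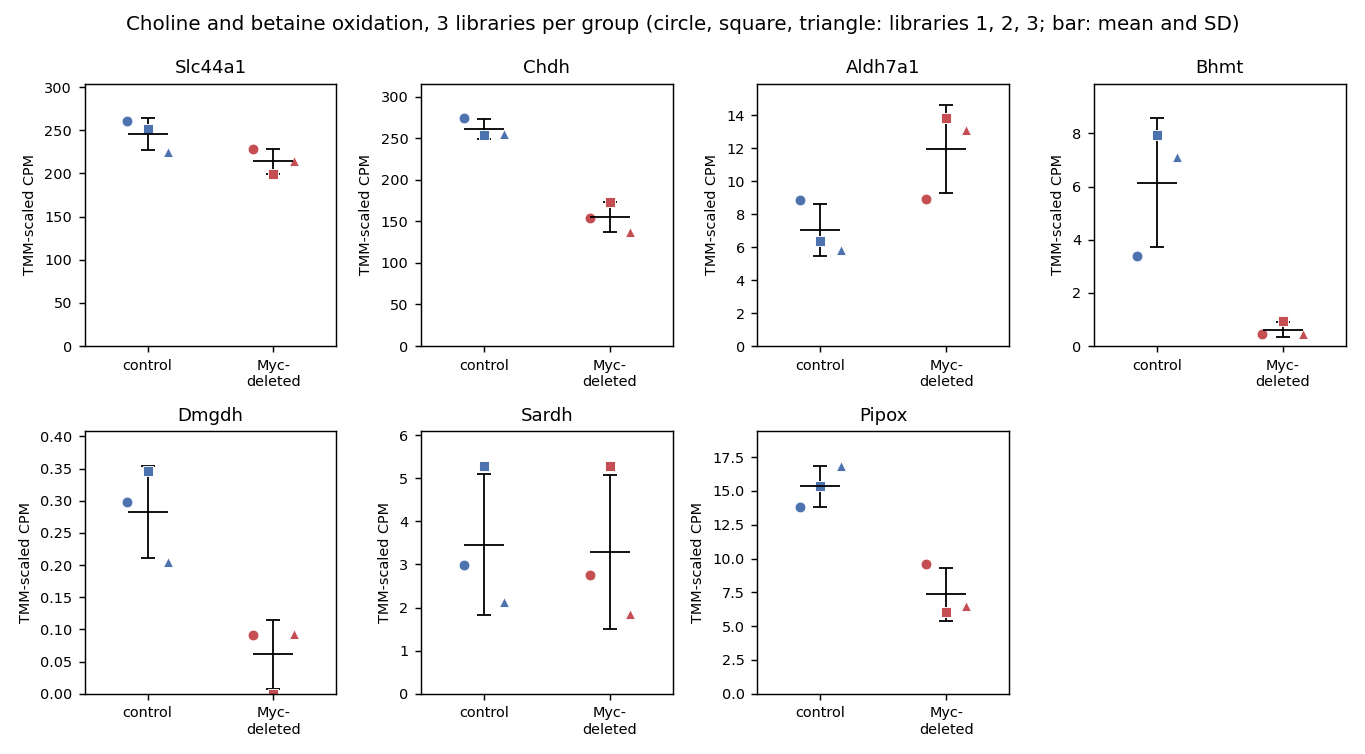
Levels of 7 genes of choline uptake, betaine synthesis and betaine breakdown in TMM-scaled CPM (vertical axes, each starting at 0) in control (blue) and Myc-deleted (red) libraries, with bars for the mean and SD. Chdh, Bhmt, Dmgdh and Pipox are lower in each Myc-deleted library than in any control, Aldh7a1 is higher and did not pass the test, and Slc44a1 and Sardh overlap. Dmgdh, untested, rests on 0 to 4 counts per library.

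Of the 6 tested genes of choline and betaine oxidation, a group that also holds genes of choline uptake and enzymes acting on sarcosine, 2 fell. Chdh, the mitochondrial choline dehydrogenase that starts betaine synthesis, had 275, 253 and 255 CPM in the controls, against 154, 174 and 138 CPM with Myc deleted. It was lower in each Myc-deleted library (-0.75 ± 0.09 SE, edgeR adjusted p = 0.00161). Pipox, a peroxisomal oxidase of sarcosine and pipecolic acid, went from 15.4 ± 1.52 to 7.37 ± 1.95 CPM (-1.06 ± 0.18 SE, edgeR adjusted p = 0.00732). Sardh, the mitochondrial sarcosine dehydrogenase, overlapped between groups (-0.09 ± 0.42 SE, edgeR adjusted p = 0.927).

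Around the methionine cycle, Adk, the adenosine kinase that removes the adenosine released by Ahcy, fell from 106 ± 4.64 to 71.6 ± 7.18 CPM (-0.57 ± 0.09 SE, edgeR adjusted p = 0.00465). It was the 1 gene called among 13 tested. Mtr, the folate-dependent methionine synthase and alternative to Bhmt, had 1.92 ± 0.463 and 1.99 ± 0.687 CPM (0.06 ± 0.35 SE, edgeR adjusted p = 0.944). Among 7 tested genes of sulphur amino acid breakdown, Mpst, a mercaptopyruvate sulphurtransferase, fell from 127 ± 13.1 to 70.0 ± 8.48 CPM (-0.86 ± 0.11 SE, edgeR adjusted p = 0.00173). Cth, cystathionine gamma-lyase, did not pass (-0.13 ± 0.10 SE, edgeR adjusted p = 0.487). Cbs, cystathionine beta-synthase, had at most 2 counts in any library.

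Of 11 tested folate-converting genes, Mtfmt, which formylates the mitochondrial initiator tRNA, fell (-0.42 ± 0.11 SE, edgeR adjusted p = 0.0481). Mtfmt did not pass in any leave-one-out fit (adjusted p 0.0661 to 0.151) nor with DESeq2 (0.154). Tyms, thymidylate synthase, did not pass (-0.29 ± 0.17 SE, edgeR adjusted p = 0.378). Among 5 tested genes of folate uptake and storage none passed in edgeR, with 0 higher and 3 lower at an unadjusted p under 0.05, while DESeq2 called 1. Slc46a1, the proton-coupled folate transporter of the gut, had 23.8 ± 1.83 and 25.3 ± 5.51 CPM (0.09 ± 0.15 SE, edgeR adjusted p = 0.785). Slc19a1, the reduced folate carrier, was 11.5, 16.3 and 13.0 CPM in the controls, against 11.3, 6.59 and 5.26 CPM with Myc deleted (-0.81 ± 0.26 SE, edgeR adjusted p = 0.0883). It passed with DESeq2 (adjusted p = 0.0443) and without Myc-deleted library 1 (edgeR adjusted p = 0.00832). No gene passed among 11 tested serine and glycine genes, 5 methyltransferases and 8 methionine salvage genes in edgeR, with 3, 1 and 1 higher and 2, 1 and 1 lower at an unadjusted p under 0.05, and DESeq2 and limma voom also called 0 of them.

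Since folate enzymes are high in dividing cells, proliferation markers were set beside them. None of 12 such markers passed in edgeR, with 1 lower and 0 higher at an unadjusted p under 0.05 and a median log2 fold change of -0.02. Their summed level was 209 to 235 CPM in the controls, against 179 to 229 CPM with Myc deleted. Immune markers summed to 383 to 405 and 369 to 427 CPM, and stromal and endothelial markers to 62.7 to 78.1 and 63.8 to 87.9 CPM. Of 10 pancreatic acinar markers 6 were at 0 in all libraries, and Cela1, the 1 tested, rose (1.10 ± 0.18 SE, edgeR adjusted p = 0.00550). The part of these cell types in the falls of Mthfd1 and Shmt1 was not tested.

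The tested genes with the pattern most like each fallen member were named by the Pearson correlation of log2 CPM over the 6 libraries, as a description. These were Ggact (r = 0.997) and Uqcrfs1 (r = 0.996) for Mthfd1, Wls (r = 0.997) and Brwd3 (r = 0.994) for Shmt1, and Kri1 (r = 0.996) and Gm12999 (r = 0.989) for Bhmt. The 6 libraries form 2 groups, and values this high are picked from 12720 genes.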

How the data were processed

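Reads from 6 intestinal libraries were summarised by the authors as RSEM expected counts, and the deposited table holds these without scaling between libraries. The submitters' processing notes list the tools cutadapt, STAR, Picard and RSEM, and the build mm10, without versions. Per the labels, a stranded mRNA kit was used. The sources used here do not give the annotation release or the strand setting of the counting. Identifiers were matched to GENCODE M21 symbols (99.1% of genes).

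Expected counts were rounded in R 4.3.3. filterByExpr kept genes by a minimum count of 10 and a minimum total of 15, TMM gave the scaling, and edgeR 4.0.16 (quasi-likelihood) compared Myc-deleted with control libraries. Adjusted p-values are Benjamini-Hochberg values over all tested genes. The SE was obtained as the size of the log2 fold change divided by the root of F, and 95% intervals use its degrees of freedom. Log2 ratios used a prior count of 2. Per-kilobase levels used the union of GENCODE exons. Copies were genes matching at least 1000 bases at 90% identity or more (BLAST 2.17.0). The procedure was tested on simulated data.

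The members, gene lists and tests were chosen with earlier results of these data known. Named genes were the 10 members, Myc, up to 3 called genes per role, 12 pathway genes fixed by name (2 of them are not reported here), the 2 genes most correlated with each called member, and markers. Sardh, Slc44a1, Aldh7a1, Slc1a4 and Smcr8 were added after their values were seen. Alternatives were RLE and upper-quartile scaling, TMM without ribosomal protein and interferon genes, DESeq2 1.42.0, limma 3.58.1 voom, no filter, a stricter filter, a block for the replicate number, 1 library left out at a time, prior counts of 0.5 and 5, and, added after seeing the data, copies summed.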

Additional observations from a re-analysis of the deposited data

How the results depend on the processing

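Bhmt and Mthfd1 kept their direction and passed in each alternative that tested them, and so did Chdh, Pipox, Adk and Mpst. Bhmt could not be fitted under the stricter filter (50 counts in 3 libraries). The members called lower numbered 2 to 4, with 2 to 3 when a library was left out and Ahcy added without a filter or with a block. Without Myc-deleted library 2 the 3 were Bhmt, Mthfd1 and Shmt2. The sign of Phgdh turned with upper-quartile scaling (-0.031), limma voom (-0.0062), a block (-0.0081) and summed copies (-0.0012). With 1 library left out, Phgdh ranged from -0.27 to 0.27 and Psat1 from -0.0078 to 0.34. The ratio of Phgdh to Psat1 then differed by -0.59 to 0.12 and that of Shmt1 to Shmt2 by -0.34 to 0.090. Other one-carbon genes called higher numbered 1 with DESeq2 (Aldh7a1), 2 without a filter (Aldh7a1 and Slc1a4), 1 with the stricter filter (Slc1a4) and 0 to 3 when a library was left out. The causes were not tested. Over all genes 229 to 503 were higher and 233 to 447 lower when a library was left out, against 537 and 474. The lowest of these counts came without control 2, and those without control 1 or Myc-deleted library 2, or without control 3 for lower genes, were also under the main counts by more than 1.5 times.

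A pairing of the libraries by replicate number was not established, and the main fit did not use it. Correlations as low as those found do not exclude a pairing. Same-numbered libraries had correlations of 0.026, 0.052 and 0.019 in their deviations from the group means, and each correlated best with its own number, a hint from the data only. With the replicate number as a block, Ahcy passed (-0.34, edgeR adjusted p = 0.0360), 4 members were lower and 0 higher, and 4 other one-carbon genes were lower. The block left Bhmt at -3.29, Mthfd1 at -1.27 and Shmt1 at -0.68. Precision is limited by depth for Bhmt2, Dmgdh and Bhmt in the Myc-deleted libraries.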

Other observations

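Among the other one-carbon genes, a few stood near the threshold in the upward direction, and they are named after their values were seen. Slc1a4, a transporter of serine and other small neutral amino acids, had 3.58, 3.63 and 2.86 CPM in the controls and 4.85, 5.76 and 7.29 CPM in the Myc-deleted libraries (log2 fold change 0.82 ± 0.22 SE, edgeR adjusted p = 0.0521). Each Myc-deleted library was above each control, as for 14.1% of all tested genes. Aldh7a1, an aldehyde dehydrogenase that can make betaine from betaine aldehyde, went from 7.03 ± 1.60 to 11.95 ± 2.67 CPM (SD, n = 3 each; 0.77 ± 0.21 SE, edgeR adjusted p = 0.0577). It had the opposite direction to Chdh, which supplies its substrate. Aldh7a1 passed with DESeq2 (adjusted p = 0.0409) and without Myc-deleted library 1 (edgeR adjusted p = 0.0201).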
